A study of Ovis aries with 27 samples.

Results

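Cortisol and control fetal heart septum near term, at 140 d of gestation, were compared in sheep (Ovis aries), with 7 cortisol arrays and 8 control arrays, which are 15 of the 27 arrays of the study. Arrays were taken into the comparison by their sample titles, and no measured value was used to choose them. In the cortisol group the ewe was infused with cortisol at 1 mg/kg/d from about day 115 for approximately 25 d, and the fetus was sampled at 139 to 144 d. In the control group the ewe received vehicle over the same period, and the 8 fetuses came from 7 ewes because of 1 set of twins. Which control arrays are the twins is not given in the labels used here, so all 8 entered the fit as separate samples. The fetal sex is not given in the labels used here. A second cohort, used below only to compare ages, received the same dose or vehicle for 10 d from about day 120 and was sampled at 129 to 131 d, with 6 arrays in each group. One field of the labels instead places the start of all infusions near day 115. Cortisol was given to the ewe and not to the fetus, so the dose that reached the septum is not known from the labels. Total RNA was labelled with Cy3 and hybridised to a 1-colour Agilent sheep array of 15008 probes.

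Cortisol is the main glucocorticoid of sheep, and its fetal plasma level normally climbs before birth, when it matures the lung, liver and gut. In heart muscle it can act through the glucocorticoid receptor, encoded by NR3C1, and the mineralocorticoid receptor, encoded by NR3C2. The enzyme HSD11B1 regenerates cortisol from cortisone inside cells, whereas HSD11B2 inactivates it. The septum holds cardiomyocytes together with endothelial cells, fibroblasts, smooth muscle cells and resident immune cells, so a level measured in it is an average over all of them.

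A level is given throughout as log2 of the array's processed signal relative to that array's 75th percentile, and a change is the mean level of the cortisol arrays minus that of the control arrays. Of the 15008 probes, 12770 were well above background on at least 6 of the 27 arrays and were tested with limma. A gene name could be attached to 1214 of these (9.51%), which represent 790 genes, and the other 11556 probes have no gene name here. The 75th percentile ran from 602 to 1079 intensity units (median 910) in the cortisol arrays and from 757 to 954 (median 832) in the controls (exact 2-sided permutation test, adjusted p = 0.476). The share of spots well above background ran from 78.3% to 80.7% with cortisol and from 77.0% to 81.6% without (exact permutation test, adjusted p = 0.476). The tissue was checked against cardiomyocyte markers, of which only 4 of a list of 35 were among the named genes of the array. Whether the others are on it among the probes without a gene name was not assessed. MB (myoglobin), CRYAB (a small heat shock protein of striated muscle), MYH7 (the slow myosin heavy chain) and HAND1 (a cardiac transcription factor) were well above background on all 15 arrays. No conduction system marker of the 19 listed was among the named genes, so that part of the septum was not assessed.

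No probe differed between cortisol and control at 140 d at the threshold of the test. With limma and Benjamini-Hochberg adjustment, 0 of 12770 probes had an adjusted p under 0.05 (0.0% called), and the smallest adjusted p was 0.487. At an unadjusted p under 0.05 there were 726 probes, 5.69% of those tested, where 638.5 would be reached if p-values were spread evenly. Of these, 184 had a higher level with cortisol (1.44% of all tested probes) and 542 a lower one (4.24%). The higher share was 25.3% in this scaling, 38.5% (267 of 693) after quantile normalization, 39.2% (74 of 189) after normexp background correction and 35.4% (227 of 641) in the authors' deposited log2 values, so the split between directions depended on the scaling. The median change over all tested probes was -0.036.

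The precision of the comparison bounds what it could have shown. The median standard error of a change was 0.149, and the median 95% confidence interval reached 0.306 to either side of the estimate. For 91.0% of tested probes the whole interval lay within a 2-fold change in either direction (from -1 to 1 on the log2 scale), and for 59.7% it lay within -0.5 to 0.5. Estimated changes beyond 2-fold were seen at 75 probes, 58 higher and 17 lower with cortisol. These intervals hold for single probes and are not adjusted for the number of probes.

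The array of cortisol replicate 4 stood apart from the other 14. On the first principal component of the 15 arrays, which held 24.1% of the variance, it lay at 85.92 while the others lay between -34.31 and 8.20. Its correlation with the mean of the other 6 cortisol arrays was 0.962, against 0.978 to 0.992 for the corresponding values of the 14 others. It was also the dimmest array of the study, with a 75th percentile of 602. It was the highest of the 15 arrays at 2865 probes (22.4%) and the lowest at 3114 (24.4%). Control replicate 1 came next, being highest at 2763 probes (21.6%) and lowest at 2079 (16.3%), and was set apart on the second component at 52.85. Without cortisol replicate 4, 0 of 12770 probes had an adjusted p under 0.05 in limma (0.0% called), the smallest adjusted p was 0.915, and 614 probes had an unadjusted p under 0.05. Of these, 108 were higher (0.846% of tested probes) and 506 lower (3.96%), and 359 probes were under 0.05 with the same sign in both fits. Without both arrays, 516 probes were under 0.05 unadjusted and 0 after adjustment. Values below are given with all 7 cortisol arrays and, for many genes and lists, also without replicate 4.

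**Figure D1:**
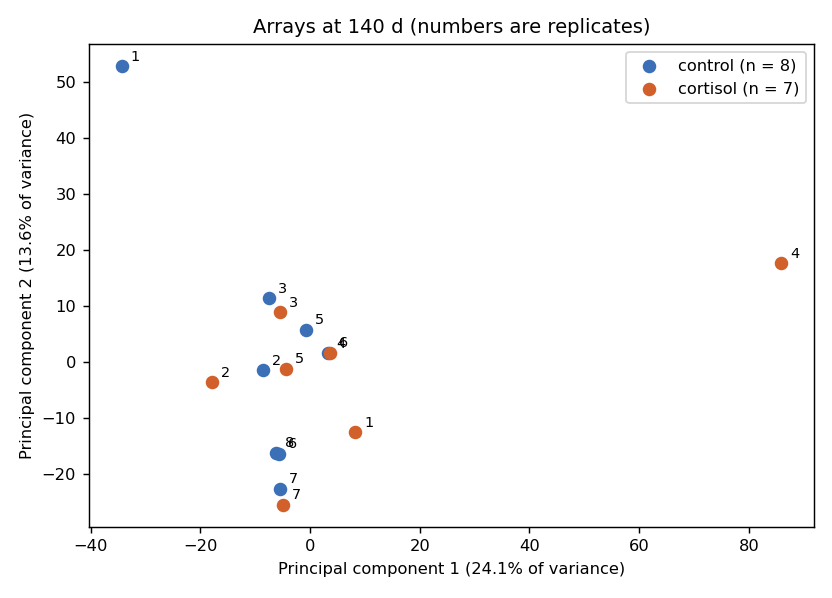
First and second principal components of the 15 arrays at 140 d over all tested probes with a value on every array. Each point is an array, coloured by group and numbered by replicate. Cortisol replicate 4 lies at 85.92 on the first component, and control replicate 1 at 52.85 on the second.

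Cortisol replicate 4 was the extreme array at most or all tested genes of several lists, which was not tested. Over the 790 named genes the array was the highest at 222 and the lowest at 136. It was the highest of the 15 arrays at all 7 early-response genes, all 6 fibroblast markers and all 5 neutrophil granule markers tested. For FOS, an immediate early transcription factor, it read 4.07 where the other 14 arrays lay between -1.90 and 0.06. For JUNB, of the same family, it read 0.62 and the rest lay between -2.97 and -2.36. It was also the highest at 11 of 13 myeloid markers, 7 of 10 endothelial markers and 18 of 28 inflammatory cytokine, chemokine and receptor genes. Among lymphocyte markers it was the highest at 2 of 9, and among adipocyte markers at 0 of 7. In the other direction it was the lowest of the 15 at 8 of 9 mitochondrial carriers and uncoupling proteins, 4 of 6 oxidative phosphorylation genes and 7 of 12 cell cycle genes. Its level of MB was 7.51, below the 7.98 to 8.83 of all other arrays. The summed level of the 13 myeloid markers was 2.09 in replicate 4, whereas it ran from 0.253 to 0.633 in the controls and to 0.915 at most in the other cortisol arrays. The summed level of the 4 cardiomyocyte markers was 7.99 in replicate 4 and 8.58 to 9.17 in the controls. The labels give no reason for the difference, and its part in each group value was measured only by leaving the array out. In a bulk tissue sample, fewer cells of a type and less RNA per cell cannot be told apart.

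**Figure D2:**
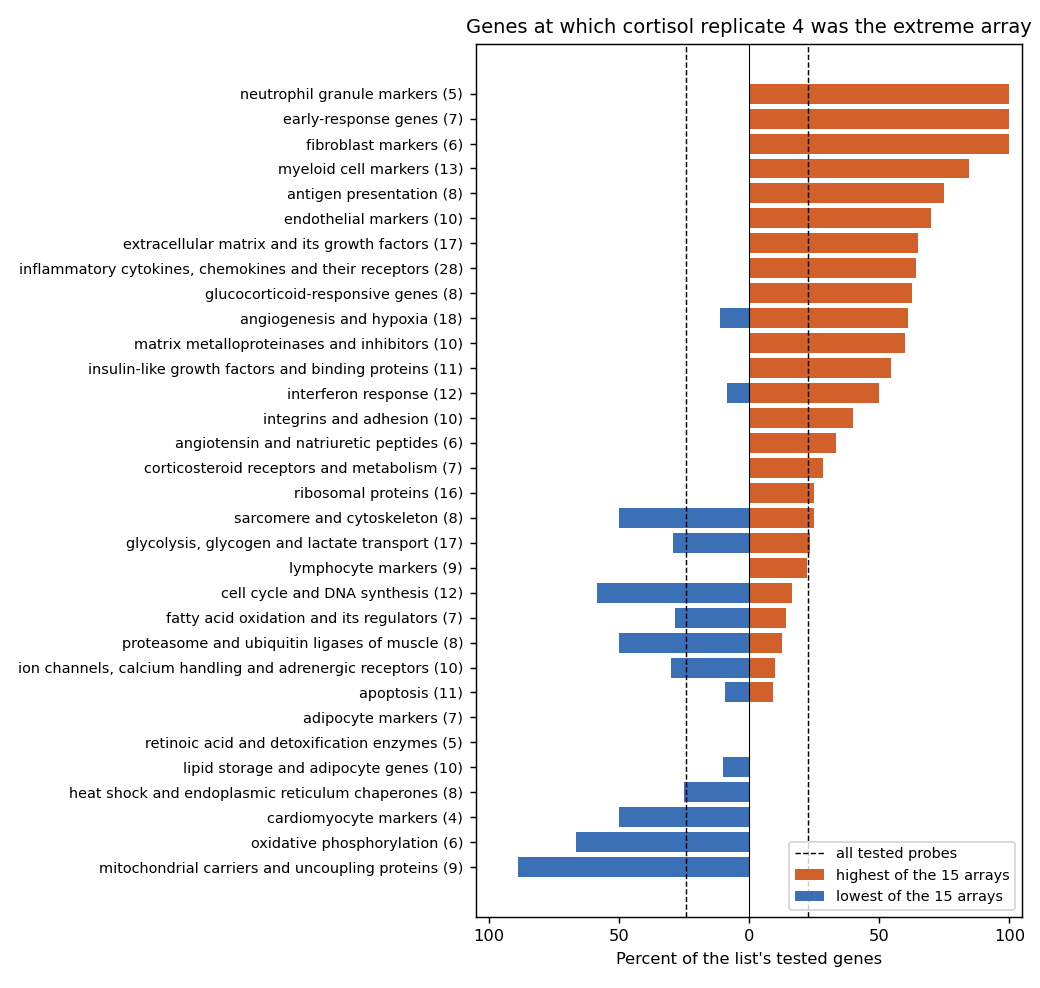
Share of the tested genes of each list at which cortisol replicate 4 was the highest (right) or the lowest (left) of the 15 arrays at 140 d, in percent, with the number of tested genes in brackets. Dashed lines mark the shares over all tested probes, 22.4% highest and 24.4% lowest. Early-response, fibroblast and neutrophil granule genes reach 100% on the right.

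Among named genes, 11 of small p in the lower direction and 12 in the higher direction are described next. In each of these the limma adjusted p was 0.808, so none passed, and the genes are given as those nearest to the threshold. Leaving out replicate 4 affected both sets unequally. All 11 lower genes, each by its brightest tested probe, kept an unadjusted p under 0.05 in limma without it. Of the 12 higher genes, 11 were under 0.05 with all arrays and 3 without replicate 4. At 8 of the 12 higher genes replicate 4 was the highest of all 15 arrays, as it was at 222 of the 790 named genes. It was the lowest at 1 of the 11 lower genes, against 136 of the 790. Both sets were chosen by small p in the fit that included replicate 4, so these counts do not test its influence.

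PER3, a component of the circadian clock, had the smallest p of the named genes. Its level ran from -4.32 to -3.89 in the controls (median -4.20) and from -5.45 to -4.25 with cortisol (median -4.76). The groups overlapped only at their edges, and all 7 cortisol arrays lay below the control mean. The change was -0.59 ± 0.16 (SE; 95% interval -0.91 to -0.26), and it was -0.64 without replicate 4. A second PER3 probe of nearly the same mean level (-4.52 against -4.51) gave -0.10. The first probe lies near the low end of the scale, and under normexp correction, which adds an offset of 50 intensity units, the change was -0.07.

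TSPO, a cholesterol-binding protein of the outer mitochondrial membrane, was measured well above background on every array. Its level ran from 1.47 to 2.30 in the controls (median 1.78) and from 1.11 to 1.64 with cortisol (median 1.5). All 7 cortisol arrays were below the control mean, although the ranges overlapped. The change was -0.37 ± 0.11 (interval -0.60 to -0.15), -0.35 without replicate 4 and -0.37 under normexp, and a second TSPO probe gave -0.31. Within the slides that held both groups it was -0.49 on slide 2, -0.36 on slide 3, -0.63 on slide 4 and -0.31 on slide 5. The sign for TSPO was thus the same on all of these, while the size differed between the slides. Here and below, slide 4 compares 1 array with 1, cortisol replicate 6 with control replicate 5. Slide 5 has cortisol replicate 7 alone against control replicates 6, 7 and 8, and slide 3 includes cortisol replicate 4.

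POMC encodes the precursor of adrenocorticotropic hormone. It lay between -0.80 and 1.08 in the controls (median -0.08) and between -1.40 and -0.36 with cortisol (median -0.88). The ranges overlapped, but no cortisol array reached the control mean. The change was -0.84 ± 0.32 (interval -1.51 to -0.17), -0.87 without replicate 4 and -0.75 under normexp. A second POMC probe gave -0.78. On slides 2 to 5 the within-slide values were -0.94, -0.37, -1.09 and -0.88.

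CD247, the zeta chain of the T cell receptor complex, ran from -4.65 to -3.69 in the controls (median -4.06) and from -5.17 to -4.25 with cortisol (median -4.73). The change was -0.55 ± 0.19, and -0.50 without replicate 4. A second CD247 probe gave -0.77. All 7 cortisol arrays were below the control mean, but under normexp the change was -0.10.

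PGF, the placental growth factor that binds the receptor FLT1, had a change of -0.46 ± 0.15, -0.53 without replicate 4 and -0.02 under normexp.

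The remaining lower genes were CCL25 (a chemokine for T cells, -0.34 ± 0.12), GRPEL1 (a co-chaperone of mitochondrial protein import, -0.39 ± 0.15), SLC25A38 (a mitochondrial glycine carrier, -0.26 ± 0.09), KCNK3 (a background potassium channel, -0.37 ± 0.14), HOXC6 (a homeobox transcription factor, -0.62 ± 0.23) and LHCGR (the luteinising hormone receptor, -0.54 ± 0.19). For GRPEL1 the value without replicate 4 was -0.21, since that array read -1.49 and the other 6 lay between -0.34 and -0.01. For the 5 others it lay between -0.25 and -0.70. HOXC6 and LHCGR were dim, LHCGR being well above background on 5 of 7 cortisol arrays. Under normexp their changes were 0.03 and 0.04, with the opposite sign, and SLC25A38 was at -0.004. The values of KCNK3, CCL25 and GRPEL1 under normexp were -0.15, -0.28 and -0.36. A second KCNK3 probe, at nearly the same level (-3.47 against -3.27), gave -0.006, and a second PGF probe gave -0.20. A second GRPEL1 probe gave -0.29, and -0.10 without replicate 4. Over the 11 lower genes the median change was -0.456 as measured, -0.471 without replicate 4 and -0.0995 under normexp.

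In the higher direction, TXNIP, an inhibitor of thioredoxin and a gene known to respond to glucocorticoids, was among the 12. Its level ran from 4.48 to 5.80 in the controls (median 5.13) and from 4.61 to 6.87 with cortisol (median 5.45). The top value, 6.87, was that of replicate 4, but 2 other cortisol arrays also exceeded every control. The change was 0.61 ± 0.25 (interval 0.09 to 1.14), and 0.42 without replicate 4. A second TXNIP probe gave 0.65, and the within-slide values on slides 2 to 5 were 0.16, 1.05, 1.61 and 0.37.

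ICAM1 encodes the adhesion molecule by which leukocytes bind endothelium. It ran from -5.36 to -4.33 in the controls (median -4.57) and from -4.49 to -2.31 with cortisol (median -4.05). All 7 cortisol arrays were above the control mean, and replicate 4, at -2.31, was far above the other 6, which reached at most -3.76. The change was 0.77 ± 0.31 (interval 0.12 to 1.41), and 0.50 without that array.

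IRF1, a transcription factor of the interferon response, ran from -4.31 to -2.96 in the controls (median -3.57) and from -3.49 to -1.30 with cortisol (median -3.21). All 7 cortisol arrays lay above the control mean, with replicate 4 the highest at -1.30. The change was 0.84 ± 0.36, and 0.60 without replicate 4. DRB1, a major histocompatibility complex class II gene of antigen-presenting cells, gave 1.05 ± 0.44, and 0.75 without replicate 4. Control replicate 2 read -3.62 for DRB1 while the median of the controls was -0.97. OVAR, a class I gene of the same complex, gave 0.86 ± 0.40, and 0.70 without replicate 4.

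The other higher genes were BGLAP, FABP5, ALOX5AP, MYC, MMP2, TRAF3 and PRNT. BGLAP (osteocalcin) gave 0.92 ± 0.29 but was well above background on only 4 of 8 control and 6 of 7 cortisol arrays. Its change was 0.79 without replicate 4 and 0.315 under normexp. Cortisol replicate 7 was the highest at -3.46 and replicate 4 read -4.38, while the cortisol median was -5.70. FABP5, a fatty acid binding protein, gave 0.77 ± 0.38, and 0.44 without replicate 4, which at 5.87 was the highest array. ALOX5AP, which presents arachidonic acid for leukotriene synthesis, gave 0.56 ± 0.24, and 0.37 without replicate 4. MYC, a growth-associated transcription factor, gave 0.44 ± 0.20 and MMP2, a gelatinase of the matrix, 0.37 ± 0.18, with 0.32 and 0.23 without replicate 4. TRAF3, an adaptor of tumour necrosis factor receptors (0.36 ± 0.14), and PRNT, a gene of the prion protein locus (0.35 ± 0.17), had 0.36 and 0.37 without it and were dim, with PRNT well above background on 5 of 8 controls. The second probes of PRNT and TRAF3 gave -0.015 and 0.155, and the other probes of MMP2 gave 0.152 and 0.225. Over the 12 higher genes the median change was 0.69 as measured, 0.433 without replicate 4 and 0.489 under normexp.

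**Figure D3:**
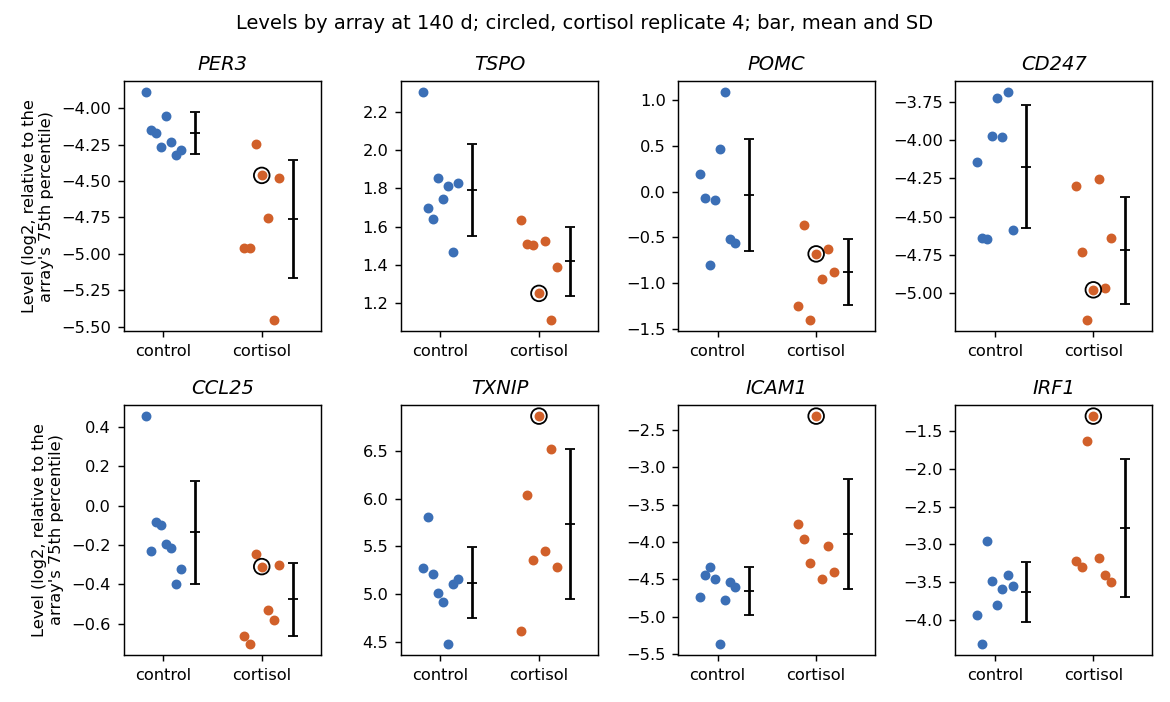
Level of 8 of these genes on each of the 15 arrays at 140 d, as log2 relative to the array's 75th percentile, for 8 control and 7 cortisol arrays. Points are arrays, the circle marks cortisol replicate 4, and the bar gives the mean and SD of each group. For TXNIP, ICAM1 and IRF1 the circled array is the highest of all, and for PER3, POMC and CCL25 it lies inside its own group.

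**Figure D4:**
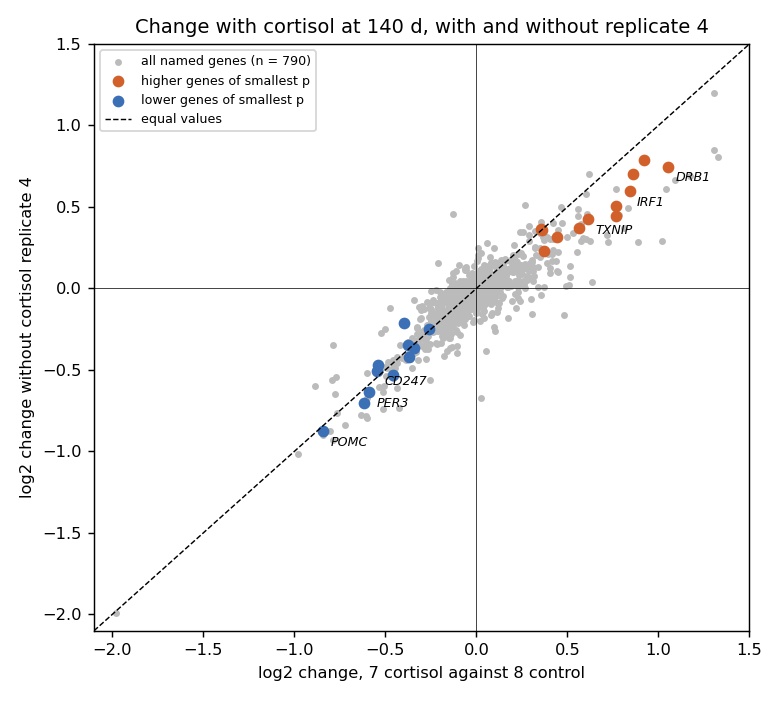
Change with cortisol at 140 d for the 790 named genes, estimated from all 7 cortisol arrays (horizontal) and without replicate 4 (vertical), both as log2. Orange and blue points are the 12 higher and 11 lower genes of small p described here, and the dashed line marks equal values. The median of the orange genes is 0.69 and then 0.433, while that of the blue genes is -0.456 and -0.471.

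The corticosteroid system itself was represented by 7 tested genes of a list of 20. Their median change was -0.453 against -0.036 over all probes, 5 were negative, 2 had an unadjusted p under 0.05 in the lower direction (POMC and CYP17A1), and 0 were called. NR3C1, the glucocorticoid receptor, ran from -3.93 to -2.89 in the controls (median -3.31) and from -4.09 to -2.88 with cortisol (median -3.44). The groups covered nearly the same range, the change was -0.09 ± 0.16, and its 95% interval of -0.41 to 0.24 lay well inside a 2-fold change. Without replicate 4 it was -0.18. HSD11B1 had a change of 0.10 ± 0.24 (interval -0.40 to 0.59), and of -0.04 without replicate 4. HSD11B2 ran from -6.00 to -0.12 in the controls (median -4.54) and from -5.59 to -4.09 with cortisol (median -5.10). Control replicate 3 held the highest of these values, and the change was -0.79 ± 0.54 with an interval from -1.90 to 0.32, but it was -0.21 without control replicate 3. A second HSD11B2 probe gave -0.68, with a control maximum of -0.22 against a control median of -4.75. With 1 array left out at a time, the weakest change of that probe was -0.09. CYP17A1, a steroidogenic enzyme of the adrenal and gonad, had a change of -0.45 ± 0.18, and all 7 cortisol arrays were below its control mean. NR3C2 was not among the named genes tested.

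Of 36 genes listed as glucocorticoid-responsive, 8 were tested, with 6 positive and 2 negative changes, a median of 0.159, and -0.005 without replicate 4. TXNIP was the member with an unadjusted p under 0.05 in the higher direction, and MT3, a metallothionein, in the lower (-0.19 ± 0.09). PER1, a clock gene with known glucocorticoid response elements, had a change of 0.09, and of -0.02 without replicate 4. In the angiotensin and natriuretic peptide list, 6 of 17 genes were tested with a median of -0.0766, and -0.119 without replicate 4. AGTR2, the angiotensin type 2 receptor of fetal tissue, ran from -3.46 to -2.53 in the controls and from -4.06 to -3.05 in 6 cortisol arrays, while replicate 4 read -2.09. Its change was -0.52 ± 0.27, and -0.74 without replicate 4. The second AGTR2 probe gave -0.69 and -0.99. Under normexp the first probe gave -0.17 and the second -0.22. AGTR1, the type 1 receptor, gave -0.25 and -0.15.

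Energy metabolism and contraction showed small values. All 6 tested oxidative phosphorylation genes had a negative change, with a median of -0.179, and -0.060 without replicate 4. ATP5PD, a subunit of the mitochondrial ATP synthase, had the smallest p of them, at -0.27 ± 0.11. The 9 mitochondrial carriers and uncoupling proteins had a median of -0.120, and 0.015 without replicate 4. The 7 fatty acid oxidation genes had a median of 0.036, with PPARG, a lipid-sensing nuclear receptor, at 0.36 ± 0.25 and PPARA, the nuclear receptor that drives fatty acid oxidation, at -0.14 ± 0.13, and at -0.07 without replicate 4. Among 17 glycolysis, glycogen and lactate transport genes, 8 were positive and 9 negative. Their median was -0.048, and -0.106 without replicate 4, and SLC2A8, a glucose transporter, had the smallest p at -0.28 ± 0.12. The 4 cardiomyocyte markers were all negative with a median of -0.172, and -0.057 without replicate 4. MYH7 was at -0.22 ± 0.12 and CRYAB at -0.17 ± 0.13, and for CRYAB the value without replicate 4 was -0.04. TPM1, a sarcomeric tropomyosin, gave -0.13 ± 0.09, and -0.08 without replicate 4. Among 10 ion channel, calcium handling and adrenergic receptor genes the median was -0.096, with ADRB1, the main cardiac adrenergic receptor, at -0.18 ± 0.14 and GJA1, the gap junction protein connexin 43, at -0.32 ± 0.19. Leaving out replicate 4 gave -0.05 and -0.11 for this pair.

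Ribosomal protein genes, which build the translation machinery, had small values of mostly 1 sign. Of 16 tested, 15 had a negative change, from -0.211 upwards, and the median was -0.121, or -0.145 without replicate 4. RPL13A had the smallest p at -0.21 ± 0.09 and RPS2 followed at -0.14 ± 0.08, while RPL32 was the positive member at 0.187. The list median on slides 2 to 5 was -0.246, -0.078, -0.075 and -0.085. Under normexp the median of the ribosomal list was -0.146. Over all tested probes 7499 of 12770 changes were negative in this scaling, and 4693 were under normexp. Among 12 cell cycle and DNA synthesis genes, 9 were negative with a median of -0.231, which was -0.079 without replicate 4. AURKA, a mitotic kinase, was at -0.46 ± 0.24, and at -0.44 without replicate 4, but at -0.02 under normexp. The median of the cell cycle list under normexp was -0.045.

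Immune and stromal lists had mostly positive values that replicate 4 enlarged. All 8 antigen presentation genes were positive, with a median of 0.442, and 0.322 without replicate 4. DRB1 and OVAR, described above, were the members with an unadjusted p under 0.05. The MHC class II gene DQA1 had probes that disagreed. Its brighter probe gave 0.12 ± 0.16, and 0.04 without replicate 4, whereas the other gave 2.84 ± 1.25, the largest positive change of all 12770 probes. That second probe ran from -8.73 to -1.78 in the controls and from -8.22 to 0.91 with cortisol, and it was well above background on 4 of 8 control and 6 of 7 cortisol arrays. Of 13 myeloid markers, 12 were positive with a median of 0.235, and 0.10 without replicate 4. FCER1G, a shared signalling chain of Fc receptors, gave 0.57 ± 0.30 and FCGR1A, the high-affinity receptor for immunoglobulin G, 0.78 ± 0.42, with 0.29 and 0.45 without replicate 4. The 12 interferon response genes had a median of 0.115, or 0.092 without replicate 4.

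The 5 neutrophil granule genes had the largest list median, 1.04, and 0.612 without replicate 4. CATHL1B, an antimicrobial cathelicidin stored in neutrophil granules, ran from -4.75 to -0.05 in the controls (median -1.77) and from -2.89 to 2.01 with cortisol (median -0.50). Both groups spread over more than 4 log2 units, replicate 4 was the top array at 2.01, and the change was 1.30 ± 0.71 (interval -0.15 to 2.76), and 0.85 without that array. CATHL3, a further cathelicidin, gave 1.33 ± 0.82, and 0.81 without replicate 4. The red blood cell markers were similarly uneven: HBB (beta globin) ran from 1.59 to 4.80 in the controls and from 0.62 to 5.07 with cortisol, with a change of 0.60 ± 0.55. AHSP, which stabilises alpha globin, gave 1.30 ± 0.67, with 4 of 8 control and 6 of 7 cortisol arrays well above background. A second AHSP probe of nearly the same level gave 0.52 ± 0.70. The amount of blood in each sample is not recorded in the labels, and its part in these values was not tested.

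Lymphocyte markers lay on the other side. All 9 tested had a negative change, with a median of -0.222, and -0.334 without replicate 4. CD247 is described above, and GNLY, a cytotoxic granule protein, gave -0.17 ± 0.12 and -0.25 without replicate 4. These genes were dim, and under normexp the list median was 0.028, so their direction depended on the background correction. The summed level of the 9 genes ran from -0.813 to -0.124 in the controls and from -1.23 to -0.255 with cortisol.

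For fibroblasts and the matrix the values depended on replicate 4. All 6 fibroblast markers were positive with a median of 0.154, which was 0.013 without replicate 4. VIM, an intermediate filament protein, gave 0.31 ± 0.23 and then 0.11. Of 17 matrix and matrix growth factor genes 16 were positive, with a median of 0.169, and 0.034 without replicate 4. TGFB2, a growth factor that promotes matrix deposition, gave 0.45 ± 0.24, and 0.36 without replicate 4, and its receptor gene TGFBR2 gave -0.18 ± 0.12. Of 10 metalloproteinase and inhibitor genes 8 were positive, with a median of 0.209, and 0.062 without replicate 4. MMP13, a collagenase, was at -0.53 ± 0.21 but was well above background on 5 of 7 cortisol arrays, and it gave 0.05 under normexp. The 10 endothelial markers had a median of 0.204, and 0.144 without replicate 4. FLT1, a receptor of vascular endothelial growth factor, gave 0.62 ± 0.31, and 0.29 without replicate 4, and CAV1, the main coat protein of caveolae, 0.21 ± 0.10 and 0.19. Of 11 insulin-like growth factor genes 8 were positive, with a median of 0.158, and 0.026 without replicate 4. IGF1 itself was at 0.44 ± 0.34 and 0.10 without replicate 4, which read -1.28 where the other 14 arrays reached at most -2.77.

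**Figure D5:**
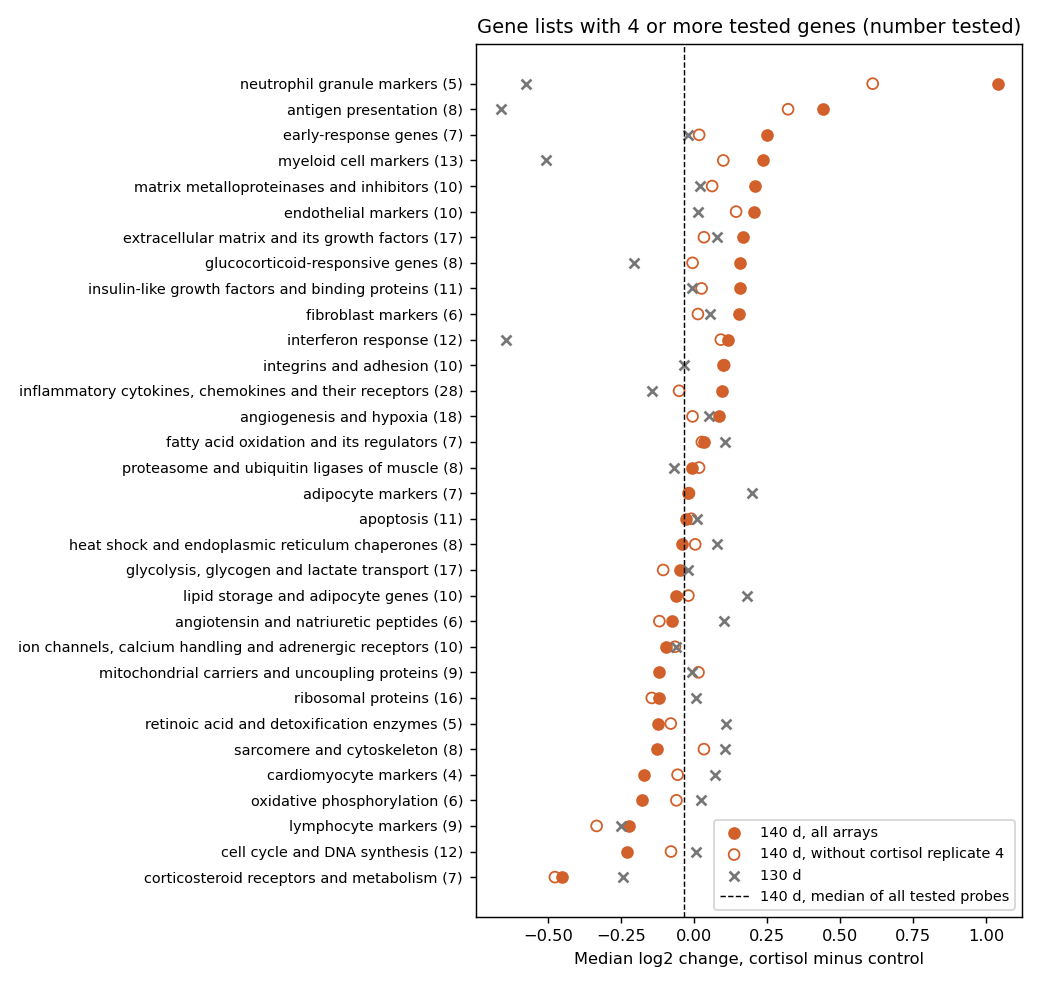
Median change with cortisol for each gene list with 4 or more tested genes (number in brackets), as log2. Filled circles are 140 d with all arrays, open circles 140 d without cortisol replicate 4, crosses 130 d, and the dashed line marks the median of all tested probes at 140 d, -0.036. Open circles lie near the dashed line for the fibroblast, matrix and early-response lists, and neutrophil granule genes lie farthest to the right at 1.04 and 0.612.

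The remaining lists were mixed. The smooth muscle and pericyte markers were CNN1 (calponin, 0.47 ± 0.49) and MYLK (myosin light chain kinase, 0.36 ± 0.18), with a median of 0.416, and 0.36 without replicate 4. The 7 early-response genes had a median of 0.249, and 0.017 without replicate 4. Of the 28 inflammatory cytokine, chemokine and receptor genes 20 were positive, with changes from -0.793 to 0.889 and a median of 0.094, which was -0.051 without replicate 4. The 18 angiogenesis and hypoxia genes had a median of 0.087, and -0.005 without replicate 4, and the 10 integrin and adhesion genes 0.098 and 0.103. The 8 sarcomere and cytoskeleton genes had a median of -0.126, and 0.034 without replicate 4, and the 5 retinoic acid and detoxification enzymes -0.122 and -0.08. The 11 apoptosis genes had a median of -0.027, with ENDOG, a mitochondrial nuclease, at -0.26 ± 0.13 (-0.12 without replicate 4) and BAD, a promoter of cell death, at -0.15 ± 0.09. The 8 heat shock and chaperone genes had a median of -0.040, or 0.004 without replicate 4, and included HSPA1A, the inducible heat shock protein, at 0.32 ± 0.27, with cortisol replicate 6 at 3.51 and the other 6 cortisol arrays inside the control range. The 8 proteasome and ubiquitin genes had a median of -0.007, or 0.017 without replicate 4, with PSMB7, a catalytic subunit, at -0.13 ± 0.08 (-0.06 without replicate 4) and UBB, a ubiquitin gene, at -0.13 ± 0.07. The 10 lipid storage genes had a median of -0.061, or -0.020 without replicate 4, with LEP (leptin) at -0.23 ± 0.10 and PLIN1, a lipid droplet coat protein, at -0.24 ± 0.12. For these genes leaving out replicate 4 gave -0.23 and -0.26. The LEP value was -0.02 under normexp, and a second LEP probe of nearly equal level had the opposite sign, at 0.225.

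The effect of cortisol at 140 d was compared with that at 130 d, where the controls and the cortisol arrays were other animals. With limma, 0 of 12770 probes had an adjusted p under 0.05 for the difference of the effects (0.0% called), the smallest adjusted p was 0.203, and 743 were under 0.05 unadjusted. Without control replicate 6 of 140 d, 2 unnamed probes passed for the difference (A_70_P002546 and A_70_P038671, limma adjusted p = 0.0427 each, 0.203 with all arrays). At 130 d alone 0 probes passed, the smallest adjusted p was 0.597, and 455 were under 0.05 unadjusted. None of the 12 higher genes had a positive change at 130 d, and 6 of the 11 lower genes had a negative one, where 394 of the 790 named genes were positive and 396 negative at 130 d. IRF1 was at -1.26 ± 0.40 at 130 d and 0.84 ± 0.36 at 140 d, with a limma adjusted p of 0.258 for the difference. ICAM1 was at -0.97 ± 0.35 and 0.77 ± 0.31 (adjusted p = 0.316 by limma). PER3 was at 0.43 ± 0.18 and -0.59 ± 0.16 (limma adjusted p = 0.234). Its second probe, of nearly the same mean level, was at 0.18 ± 0.15 and -0.10 ± 0.14 (limma adjusted p = 0.974). The antigen presentation list had a median of -0.663 at 130 d and 0.442 at 140 d, and the myeloid list -0.506 and 0.235. The differences of these 3 genes did not pass the test, those of the lists were not tested, and length of infusion, age and cohort cannot be told apart between them.

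Some unnamed probes are shown because their values stood out, and they were chosen after their values were seen. At 2 of the 12770 tested probes (0.0157%) the ranges of the groups did not overlap. The number of probes that would separate without any effect was not computed, so this count is not read as a result. A further probe had the largest fitted difference of all. Their sequences, read from the array files and written 5′ to 3′ in lower case with no part marked, are given so that the transcripts can be looked up, since no gene name was attached to them here.
A_70_P052051: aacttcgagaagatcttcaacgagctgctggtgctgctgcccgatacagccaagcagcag
A_70_P070371: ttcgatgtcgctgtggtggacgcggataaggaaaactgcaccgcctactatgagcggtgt
A_70_P066011: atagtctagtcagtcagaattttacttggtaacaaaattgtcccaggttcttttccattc

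Probe A_70_P052051 ran from 1.28 to 1.70 in the controls (median 1.46) and from 1.04 to 1.20 with cortisol (median 1.13). The change was -0.34 ± 0.07, and -0.32 without replicate 4, with a limma adjusted p of 0.639. On slides 2 to 5 it was -0.32, -0.31, -0.57 and -0.24, and at 130 d it was 0.02. Probe A_70_P070371 ran from 1.31 to 1.90 in the controls (median 1.55) and from 0.85 to 1.26 with cortisol (median 1.16), a change of -0.49 ± 0.12, and -0.51 without replicate 4 (limma adjusted p = 0.808). Neither passed the test, and both were well above background on all 15 arrays. The smallest p of all probes belonged to A_70_P067306, which ran from -1.54 to 0.20 in the controls and from -3.24 to -1.39 with cortisol. Its change was -1.35 ± 0.27, and -1.12 without replicate 4, which held the lowest value, with a limma adjusted p of 0.487.

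Probe A_70_P066011 behaved as an on or off signal. It read between 0.46 and 0.69 on 5 control arrays, replicates 2, 3, 5, 7 and 8, and -6.72, -8.0 and -7.12 on the other 3. All 7 cortisol arrays lay between -8.13 and -6.15. The fitted difference was -4.63 (limma adjusted p = 0.808), but no fold is given, since the probe was not well above background on the 3 low control arrays or on any cortisol array. At 130 d the probe was above 0 on 4 of 6 control and 4 of 6 cortisol arrays. Probe A_70_P045036 ran the other way, between -8.38 and -7.72 on those 5 control arrays and between -5.63 and -2.53 on the 10 other arrays of 140 d. The same opposite pattern held at 130 d in both groups. There A_70_P045036 lay between -9.02 and -7.96 on every array with A_70_P066011 above 0. On the other arrays of 130 d it lay between -4.29 and -3.45. The pattern was thus not confined to 140 d or to 1 treatment. The labels used here give neither sex nor parentage for the fetuses, and the relation of these probes to either was not tested.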

How the data were processed

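Per the labels' protocols, total RNA of each sample was labelled with Cy3, and per the submitters' processing notes Agilent Feature Extraction 10.1.1.1 produced the scanner files. The intensity used was the processed signal the authors deposited, already background-subtracted by that software. The authors also deposited a table of log2 values, which equals log2 of the processed signal minus 1 constant per array, and it served as an alternative. Levels were log2 of the processed signal minus the array's 75th percentile over non-control spots, with outlying spots left out and repeat spots averaged. Probes that the scanner software marked as well above background in 6 or more arrays were fitted with limma 3.58.1 in R 4.3.3 over all 27 arrays and 4 groups, without a block, at an adjusted p under 0.05. The script was tested on simulated data.

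Probe names came from the array files, updated through a RefSeq gene table (assembly ARS-UI_Ramb_v3.0) by symbol or accession. Of 15008 probes, 699 were named through a RefSeq accession, 504 and 78 through a current or older symbol, 125 through a gene identifier, and 152 kept the file's name. Genes with several probes were represented by the brightest. Named genes were the 12 of smallest p per direction, as none passed the threshold, the 2 of smallest p per list, and the corticosteroid receptor and enzyme genes; 1 gene so chosen is not reported here and was left out of the named genes and its list. The comparison, members and lists were chosen with earlier results of these data known. The labels name no separate cultures or litters beyond the twins. No sample was dropped or imputed unless stated. The number of arrays limits the precision.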

Additional observations from a re-analysis of the deposited data

Results flagged for a closer look

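Dixon's criterion was applied to 158 sets of values, mostly the levels of 1 named gene in 1 group. In 29 sets, all of named genes, a single array lay far from the rest of its group. Chance alone gives about 1 in 20 such sets, and genes of 1 array are not independent. Of the 29, 10 were in cortisol replicate 4 and 10 in control replicate 1.

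In cortisol replicate 4 the levels far above its group were ALOX5AP at -0.421, FCER1G at 0.231, FCGR1A at -2.88, ICAM1 at -2.31 and JUNB at 0.624. Those far below were ENDOG at 1.24, GJA1 at 2.47, GRPEL1 at -1.49, PSMB7 at 4.33 and SLC25A11 at -0.796. The first set holds genes of leukocytes, adhesion and early response, and the second includes mitochondrial genes and connexin 43.

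In control replicate 1 the high levels were CCL25 at 0.455, MMP13 at -4.28, MT3 at 4.46, PLIN1 at -0.484, RPL13A at 5.73, TSPO at 2.30 and UGT1A9 at -1.20, and the low ones HSPA1A at 0.461, MMP2 at -3.01 and TRAF3 at -6.03. Control replicate 2 was high for CNN1 at 6.63, FABP5 at 4.62 and JUNB at -2.42, and low for DRB1 at -3.62. Cortisol replicate 6 was high for HSPA1A at 3.51 and PPARG at -0.16. Control replicate 3 was high for HSD11B2 at -0.119, control replicate 5 low for ICAM1 at -5.36, and cortisol replicate 7 low for GFAP, a glial filament protein, at -4.10.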

How the results depend on the processing

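With limma, 0 probes passed at 140 d under every alternative run except within slide 2, where 1 did (A_70_P060756). Unadjusted counts were 458 with the 15 arrays alone, 443 with array weights, 189 with normexp, 479 within slide 2, 479 within slide 3, 1701 within slide 4 (1 array against 1, assumed to vary like the other groups) and 75 with normexp without cortisol replicate 4. Leaving out 1 array gave 533 to 942 (533 without control replicate 1) and 0 passing throughout. Slide as a fixed block gave 934 and slide as a random block 835, against 726 in the main fit. Slide as a fixed block without cortisol replicate 4 gave 860. For the difference between ages, 0 to 2 probes passed, 2 without control replicate 6. With the replicate number as a block (replicate block) 571 probes were under 0.05 unadjusted. Same-number correlations of -0.0896 to 0.363 do not show pairing, and 2 of 7 arrays matched their own number best. The scan day as a block was not run, as all arrays were scanned on 1 day.

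Signs turned for some named genes. Normexp gave GNLY 0.0141, HOXC6 0.0254, ITGA4 0.0461, LHCGR 0.0421, MMP13 0.0517 and NR3C1 0.0479. Without cortisol replicate 4 and with normexp, values were ADRB1 0.0737, HSD11B1 -0.0125, ITGA4 0.0207, LHCGR 0.0406 and MMP13 0.0278. Dim probes lie near the added offset, and the cause was not tested. HSD11B1 was -0.0253 with slide as a fixed block, -0.041 without cortisol replicate 4 (also with only 140 d arrays) and -0.172 without it and with slide, where SLC25A11 was 0.00756. Without cortisol replicate 2, HSD11B1 was -0.00685 and NR3C1 0.0227. With 1 array left out at a time, HSD11B1 ran from -0.041 to 0.257, NR3C1 from -0.178 to 0.0227, SLC25A11 from -0.277 to -0.0123 and VIM from 0.107 to 0.407. Without control replicate 1 and cortisol replicate 4, SLC25A11 was 0.0306 and VIM -0.0278.

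Within slide 2 the turned values were ADRB1 0.229, ATP5MC2 0.111, CNN1 -0.678, HSD11B1 -0.513, JUNB -0.0235, PFKL -0.179, SLC25A11 0.0823, TGFB2 -0.198, TPM1 0.0147 and VIM -0.0261. Within slide 3 they were AGTR2 0.259, BAD 0.117, GNLY 0.152, HSPA1A -0.0722, NR3C1 0.279, PGF 0.00609, TGFBR2 0.135 and UGT1A9 0.279. Within slide 4 they were ADRB1 0.0242, CRYAB 0.425, FCGR1A -0.0271, GJA1 0.0487, HSD11B1 -0.655, IGF1 -0.476, MMP2 -0.568, RPS2 0.0694, SLC25A11 0.179, SLC25A5 0.454 and TGFB2 -0.297. Within slide 5 they were AHSP -0.606, ALOX5AP -0.0293, CCL25 0.00795, CNN1 -0.249, CRYAB 0.0182, ENDOG 0.144, FABP5 -0.000361, FCGR1A -0.242, GSTA1 0.311, HBB -1.94, HMMR 0.0483, HSD11B2 0.503, HSPA1A -0.346, IDH1 -0.649, JUNB -0.127, KCNK3 0.0188, NR3C1 0.219, PFKL -0.136, PPARA 0.0907, SLC25A5 0.0038 and TRAF3 -0.181.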
